A study of Mus musculus with 22 samples.

Results

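Oct4-VP16, Sox2-VP16 and Klf4 were compared with GFP on matched days 1 and 3 in mouse embryonic fibroblasts. The comparison used 4 of the 22 samples of the series, chosen as the libraries of the OvSvK and GFP arms on the days that both arms share. They were OvSvK on days 1 and 3 and GFP on days 1 and 3, with 1 library for each arm and day. The series followed fibroblasts through reprogramming with OSK (Oct4, Sox2 and Klf4) over 7 days and with OvSvK over 4 days, beside GFP controls. In OvSvK, both Oct4 and Sox2 carry a VP16 fusion, an activation domain taken from a virus, and Klf4 is added unfused. All 4 samples came from fibroblasts at passage P2 that carry the OG2 transgene, on a background of 1/2 129SVJ, 3/8 C57B6 and 1/8 CBA. Total RNA was taken on day 1 or day 3, after 2 days of transfection, which both arms had. The labels name neither a vector nor a transfection method, give no dose of any factor, and do not say whether cells were pooled from several embryos or whether days of an arm came from 1 culture. No group has a replicate, so the error rests on how far the difference between arms varied from day 1 to day 3. A gene's own variation gives 1 degree of freedom, and that shared across genes a median of 5.1. A small p therefore does not show that a gene differed by the same amount on both days.

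Oct4, Sox2 and Klf4 are DNA-binding transcription factors that, expressed together in fibroblasts, can turn them into pluripotent stem cells. Oct4 binds an octamer motif and often shares composite sites with Sox2, an HMG-box factor, while Klf4 is a zinc finger protein that binds GC-rich sites. VP16 is the transactivator of herpes simplex virus, and its acidic domain recruits the transcription machinery when fused to another factor. Early reprogramming of fibroblasts is known for the loss of mesenchymal genes, the gain of epithelial genes and faster division, and genes of the pluripotency network such as Nanog usually appear later.

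The libraries held 17783289 and 12764461 expected counts in OvSvK on days 1 and 3, and 8731098 and 9070204 in GFP. Both arms also differed in features that no treatment label describes. The pseudogene Rpsa-ps10 took 0.186% and 0.281% of the counts it shares with its parent gene Rpsa in OvSvK, and 6.10% and 6.79% in GFP. The 2 values for OvSvK resemble those of the libraries that omit a medium component (0.124% to 0.370%), and those for GFP the values of OSK on days 1 to 7 (3.32% to 7.78%). The arm and this library set cannot be told apart in the 4 libraries. Of 13254 genes tested, 157 differed at least 2-fold, in 1 direction, between OSK on day 3 and each of the 3 omission libraries of that day. Of those, 23 were among the genes called here, Klf4 and Sox2 included. The ratio of OvSvK to GFP also followed GC content. The tested genes were split by GC content into 5 bins of equal size. In the bin with the lowest GC content, the median log2 ratio was 1.59 on day 1 and 0.55 on day 3. In the bin with the highest it was -0.51 on day 1 and -0.01 on day 3. The trend with transcript length on day 1 ran from -0.31 for the shortest genes to 0.71 for the longest. The ratio thus varied with GC content mainly on day 1, and removing the trend from the fit left 1244 of the 1322 calls below in place. In bulk RNA, a lower level can mean fewer cells of a type or less of the RNA in each cell, and these cannot be told apart here.

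**Figure D1:**
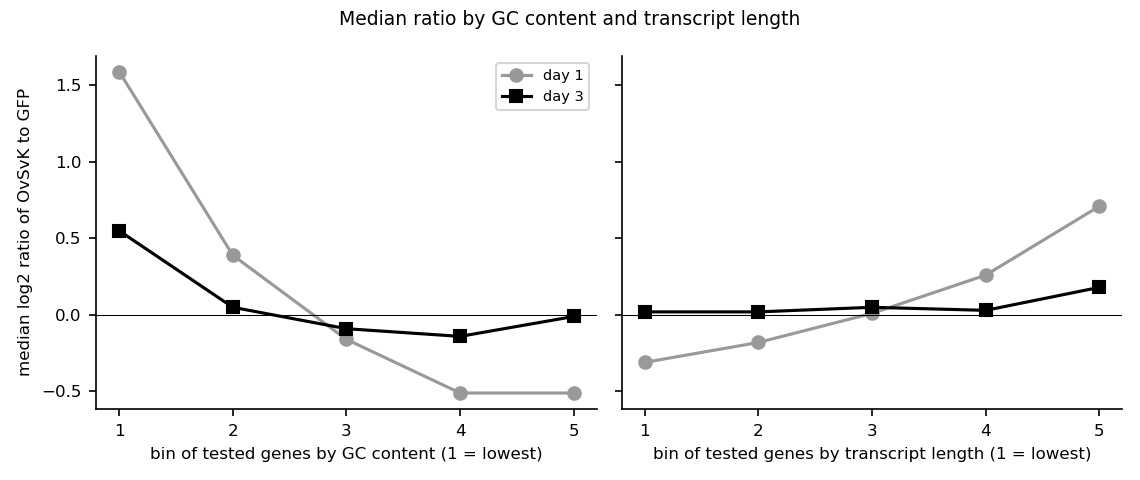
Median log2 ratio of OvSvK to GFP (vertical axis) over 5 bins of the tested genes, ordered by GC content (left) or transcript length (right), on day 1 (grey circles) and day 3 (black squares). On day 1 the median fell from 1.59 in the lowest GC bin to -0.51 in the highest, and on day 3 from 0.55 to -0.01.

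A total of 955 genes were higher in OvSvK (7.21% of the 13254 tested) and 367 were lower (2.77%), by edgeR's quasi-likelihood test with day as a block and Benjamini-Hochberg adjusted p below 0.05. All 1322 called genes had the same sign on both days. Counts for the gene lists below are to be read beside the shares over all genes tested, 7.21% higher and 2.77% lower. Higher genes made up 72.2% of the calls. With the GC trend removed there were 1660 higher and 1203 lower genes, of which 58.0% were higher, and with the series' own table the count was 1017 and 953 (51.6% higher). With DESeq2's size factors in place of TMM, 69.0% of the calls were higher. Zero counts in both GFP libraries were found for 96 of the higher genes. By a rule with no test, a 2-fold difference on each day where 1 library of each day reached 5 CPM (the count as a share of the TMM-adjusted library total, in parts per 1000000), 1577 genes were higher on both days (14.5% of 10893) and 1017 were lower (9.34%). Of the 1322 called genes, 1138 met this rule in the same direction. Left to itself, day 1 gave 2934 higher and 1728 lower genes and day 3 gave 2653 and 2003.

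**Figure D2:**
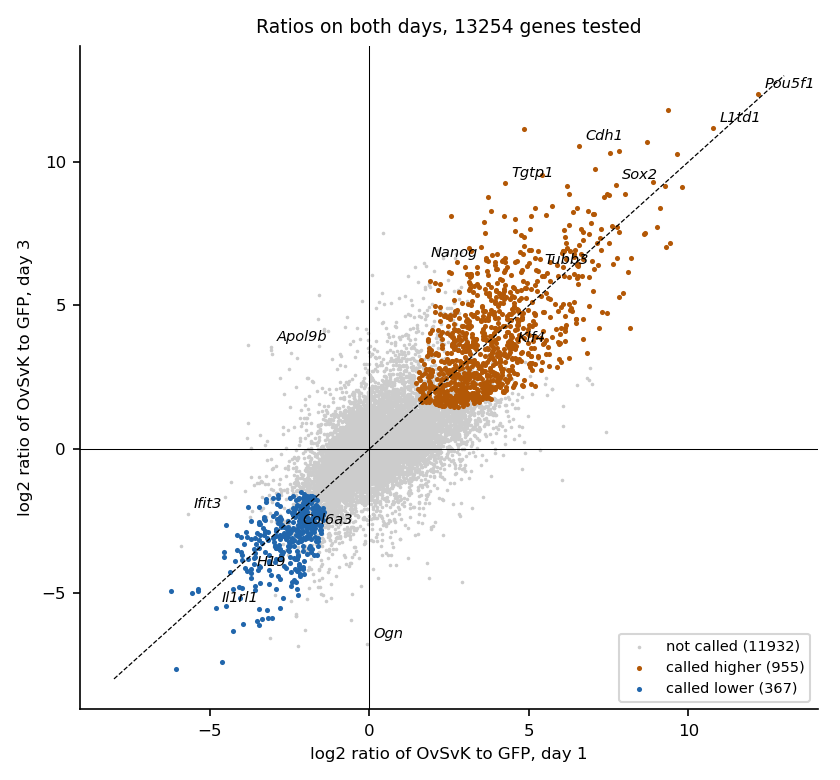
Log2 ratio of OvSvK to GFP on day 1 (horizontal) and day 3 (vertical) for the 13254 tested genes, with called genes in brown (955 higher) and blue (367 lower), and the dashed line marking equal ratios. Pou5f1, L1td1 and Cdh1 lie far up on both days, while Tgtp1 lies above the dashed line and Apol9b and Ogn differ between days.

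The introduced factors were the first genes examined, since they check the labels. Pou5f1, which encodes Oct4, measured 766 CPM in OvSvK on day 1 and 860.0 on day 3, and had 0 counts in both GFP libraries. In mm10 the gene lies at chr17:35506018-35510772 (+ strand). Against a floor of 3 counts per library, that is at least 2149-fold higher on day 1 and at least 2392-fold on day 3 (adjusted p = 0.00941). The counts do not separate transcripts of the introduced genes from those of the cells' own. Sox2 measured 159.5 CPM and 165 in OvSvK against 0.594 and 0.12 in GFP, a fitted log2 difference of 8.84 (SE 0.73, adjusted p = 0.00941). Sox2 lies at chr3:34650405-34652461 (+ strand) and Klf4 at chr4:55527143-55532466 (- strand). Klf4 measured 591 and 644 CPM against 26.6 and 56.7, a log2 difference of 3.99 (SE 0.47, adjusted p = 0.0133). Both OvSvK libraries lay above both GFP libraries for all of these factors, so the labels and the data go together. Per transcript length, Pou5f1 reached 1438 and 1792 TPM, Klf4 481 and 669.9, and Sox2 160.4 and 184, which places Pou5f1 highest on both days. Myc, a growth regulator that the study did not add, measured 39.2 and 22.9 CPM in OvSvK against 11.6 and 5.03 in GFP (log2 difference 1.96, SE 0.45, adjusted p = 0.047). Its call ended without any 1 of the 4 libraries (adjusted p from 0.0581 to 0.393) and without the block (0.0968).

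**Figure D3:**
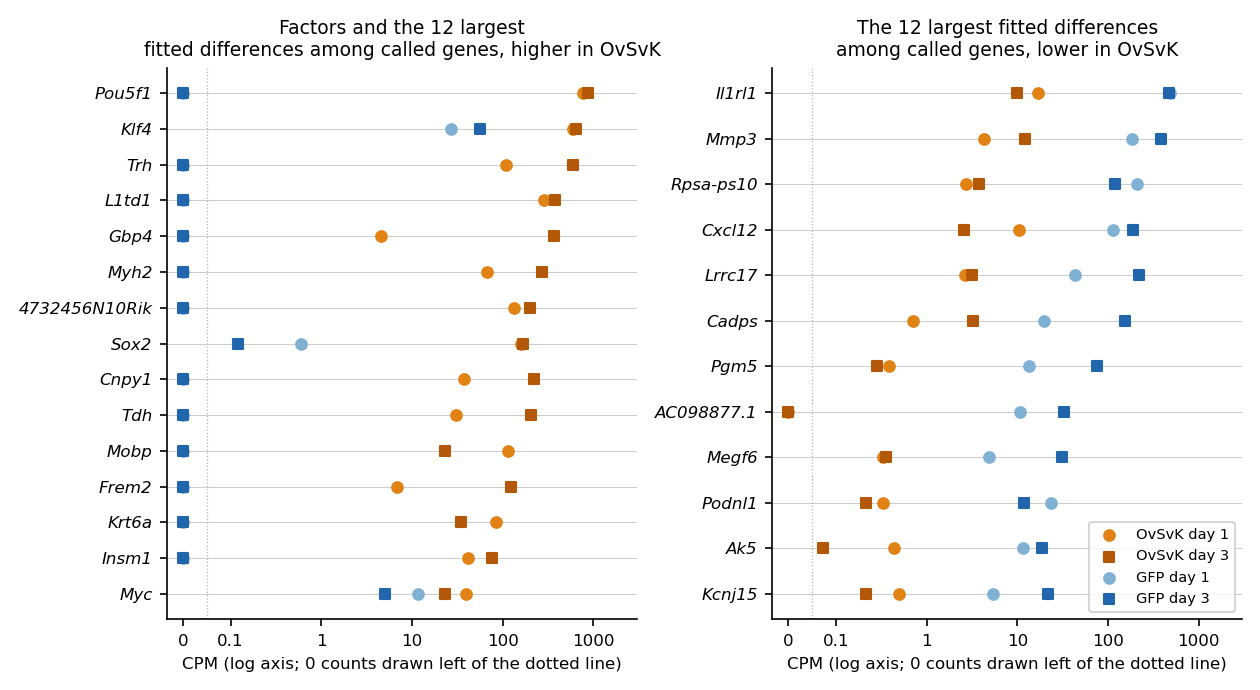
CPM (log axis, 0 counts drawn left of the dotted line) in each of the 4 libraries for the factors and the 12 largest fitted differences higher in OvSvK (left), and the 12 largest lower (right), among called genes averaging 5 CPM or more. Brown points (OvSvK) lie to the right of blue points (GFP) for every gene on the left, and to the left of them for every gene on the right.

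Among called genes averaging 5 CPM or more, the 12 largest fitted differences in the higher direction, Pou5f1 among them, all had 0 counts in both GFP libraries, so their size is given as a bound and not as a fitted value. Trh, which encodes the precursor of thyrotropin-releasing hormone, measured 108 CPM on day 1 and 590.2 on day 3, at least 302-fold and 1641-fold above GFP. L1td1, an RNA-binding protein gene of pluripotent cells, measured 286 and 379 CPM, at least 802-fold and 1053-fold. Tdh, the threonine dehydrogenase of mouse stem cells, measured 30.6 and 206 CPM, at least 85.7-fold and 572-fold. These 3 genes were seen in both OvSvK libraries well above the floor. Gbp4, an interferon-inducible GTPase, measured 4.58 CPM on day 1 and 369 on day 3. Frem2, a basement membrane protein, went from 6.78 CPM to 122. Myh2, a myosin heavy chain of fast muscle, measured 67.8 and 271 CPM. In contrast with these 3, which were higher on day 3, Mobp, a myelin protein gene, measured 113 CPM on day 1 and 23.2 on day 3. Krt6a, a keratin of stressed epithelium, measured 85 and 35 CPM. L1td1 lies at chr4:98726734-98738480 (+ strand) and Trh at chr6:92242061-92244650 (- strand). Insm1, a zinc finger factor of neuroendocrine cells, measured 41.9 and 76.8 CPM, Cnpy1 37.2 and 219.8, and 4732456N10Rik 131 and 201. The adjusted p of the 12 genes ran from 0.00941 to 0.0104. Leaving out either GFP library ended the calls of Trh, Gbp4, Myh2, Cnpy1, Tdh, Mobp and Frem2, and the fit without the block those of Gbp4 and Frem2 (adjusted p from 0.0502 to 0.276). Both also ended with DESeq2 (0.0667 and 0.0646).

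Of the late pluripotency genes, transcription factors and other genes of the naive stem cell state, 12 of 21 could be tested. Of all 21, 11 were at 1 CPM or more in OvSvK on day 1 and 18 on day 3, against 5 and 4 in GFP. Higher calls were made for 7 of the 12 and lower calls for 0, but a gene scarce in GFP reaches the counts for a test only where OvSvK is high, so this split is in part fixed by the filter on low counts. The same holds for the early, epithelial, neural, endothelial and trophoblast lists below. Tfcp2l1, a factor of naive stem cells, measured 33.1 and 111 CPM in OvSvK on days 1 and 3 against 2.5 and 0.959 in GFP (log2 difference 5.17, SE 0.87, adjusted p = 0.0269). Zfp42, the stem cell marker also named Rex1, measured 4.58 CPM on day 1 and 27.4 on day 3, and Nr0b1, an orphan nuclear receptor, 4.25 and 28.4, with 0 counts of either gene in GFP (adjusted p = 0.0178 for each). Fbxo15, an F-box gene, measured 4.08 and 17 CPM against 0 and 0.599 (adjusted p = 0.0287). Each of these 4 genes was higher on both days. Gdf3, a growth factor, and Dppa2, a nuclear protein of stem cells, were also called higher. Nanog, a core factor of the network, measured 1.93 CPM on day 1 and 56.9 on day 3 in OvSvK and 0.475 and 0.479 in GFP. Nanog did not pass the test (log2 difference 4.89, adjusted p = 0.0612). It passed under 9 of the 15 alternatives that gave it a value, DESeq2 and the series' own table among them. It did not pass without the block (0.0965), with the GC trend removed (0.0978), or without either GFP library or OvSvK day 3. Its log2 difference was 1.94 without OvSvK day 3 and 6.76 without OvSvK day 1, so its size rested largely on OvSvK day 3. Among the 9 genes too sparse to test, Esrrb reached 12.9 CPM, Nr5a2 21.4 and Lin28a 20.2 in OvSvK on day 3, each from under 1 CPM on day 1, whereas Dppa3 was at 1.28 CPM, Dppa5a at 2.92 and Tcl1 at 0.0712. Leaving out 1 library ended the calls of Nr0b1, Zfp42, Tfcp2l1 and Fbxo15 (either GFP library) and Fbxo15 (OvSvK day 3), and the fit without the block those of Nr0b1, Zfp42 and Fbxo15, at adjusted p from 0.0583 to 0.148. Those of Nr0b1 and Zfp42 ended with DESeq2 too (0.116 and 0.115), and that of Tfcp2l1 with OSK days 1 and 3 added to the fit (0.0513). The calls of Gdf3 and Dppa2 ended without either GFP library or the block, and that of Dppa2 also without OvSvK day 3 (adjusted p from 0.0665 to 0.211), whereas Gdf3 had no test without OvSvK day 3.

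Genes active early in reprogramming were tested for 9 of 15, with 5 higher calls and 0 lower calls. Of all 15, 8 were at 1 CPM or more in OvSvK on day 1 and 13 on day 3, against 4 and 5 in GFP. Their summed level was 721 and 1252 CPM in OvSvK on days 1 and 3, and 445 and 3051 in GFP. The total on day 3 was thus higher in GFP, through members not named in this paragraph. L1td1 and Tdh are described above. Epcam, an adhesion molecule of epithelial and stem cells, measured 12.1 CPM on day 1 and 104 on day 3 against 0.357 and 0.24 (log2 difference 7.09, SE 0.94, adjusted p = 0.0167). Sall1, a zinc finger factor, measured 9.76 and 104 CPM against 0.475 and 1.2 (log2 difference 5.63, SE 0.71, adjusted p = 0.0145). Fgf4, a growth factor gene with a well-known joint site for Oct4 and Sox2, measured 4.36 and 3.63 CPM and had 0 counts in GFP (adjusted p = 0.034). Sall4, a zinc finger factor of stem cells, was not tested because it was almost absent on day 1. It measured 0.386 CPM on day 1 and 58.1 on day 3 in OvSvK, with 0 counts in both GFP libraries. Alpl, the alkaline phosphatase of stem cell stains, measured 0.827 and 19.2 CPM in OvSvK and 0.238 and 0.12 in GFP. In OvSvK, L1td1 was high on both days, while Tdh, Epcam, Sall1 and Sall4 had far higher values on day 3 than on day 1. Calls of Tdh, Sall1 and Epcam ended without either GFP library, and that of Sall1 without OvSvK day 3 or the block (adjusted p from 0.0537 to 0.241).

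Promoter sequences were read for these genes because the introduced factors bind octamer and Sox motifs. Each window runs from 250 bases before to 50 after the gene's start in RefSeq (GRCm38.p6), and 9769 tested genes were matched by symbol. The composite searched was TTGCAT, any 1 base, then ACAA, on both strands. It occurred in the promoters of 47 of 27025 genes (0.174%), in 6 of 9769 tested genes and in 3 of 688 genes called higher, and in 0 of 251 called lower. Those 3 genes are Astn1, Nrarp and Pipox, and the window of Nanog, which was not called, holds it too. The octamer ATGCAAAT, which overlaps the composite in some sites, occurred in 532 of 27025 genes (1.97%) and in 163 of 9769 tested genes (1.67%). Among called genes it occurred in 21 of 688 higher (3.05%) and in 4 of 251 lower genes (1.59%). Matches describe the letters of a window and do not show that a factor bound there. The windows below are written 5′ to 3′ on the gene's strand, with the match in capitals.
Nanog: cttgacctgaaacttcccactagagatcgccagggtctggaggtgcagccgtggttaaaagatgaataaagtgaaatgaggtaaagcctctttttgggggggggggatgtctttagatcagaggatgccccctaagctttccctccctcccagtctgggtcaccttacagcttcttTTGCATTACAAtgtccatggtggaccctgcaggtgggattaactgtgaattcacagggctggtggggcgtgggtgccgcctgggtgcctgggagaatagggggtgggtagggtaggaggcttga
Pipox: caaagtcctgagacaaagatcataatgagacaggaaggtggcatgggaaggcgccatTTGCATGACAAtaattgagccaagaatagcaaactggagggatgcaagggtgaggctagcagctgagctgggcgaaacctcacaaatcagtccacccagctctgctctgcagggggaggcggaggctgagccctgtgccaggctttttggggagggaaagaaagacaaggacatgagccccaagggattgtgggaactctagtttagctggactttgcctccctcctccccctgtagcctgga
Nrarp: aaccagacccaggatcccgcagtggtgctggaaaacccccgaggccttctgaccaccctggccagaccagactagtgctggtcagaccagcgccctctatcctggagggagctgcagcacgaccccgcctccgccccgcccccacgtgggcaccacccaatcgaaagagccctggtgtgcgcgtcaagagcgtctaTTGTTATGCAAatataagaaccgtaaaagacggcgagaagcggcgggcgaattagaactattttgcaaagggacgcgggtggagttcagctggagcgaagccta
Zfp42: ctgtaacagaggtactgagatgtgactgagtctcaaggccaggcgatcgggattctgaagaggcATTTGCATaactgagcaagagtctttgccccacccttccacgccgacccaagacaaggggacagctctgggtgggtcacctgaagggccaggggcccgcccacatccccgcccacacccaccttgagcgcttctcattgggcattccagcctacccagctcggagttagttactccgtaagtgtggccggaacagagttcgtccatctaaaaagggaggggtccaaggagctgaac
Nanog is shown as the composite case, followed by the higher genes Pipox and Nrarp, and Zfp42 for its octamer. The Nanog window lies at chr6:122707239-122707538, + strand, Pipox at chr11:77893823-77894122, - strand, Nrarp at chr2:25180508-25180807, + strand, and Zfp42 at chr8:43306960-43307259, - strand. Pipox, an enzyme that oxidizes pipecolic acid and sarcosine, measured 21 CPM on day 1 and 47.7 on day 3 in OvSvK, with 0 counts in GFP (adjusted p = 0.0111). Nrarp, a feedback regulator of Notch signalling, measured 19.2 and 29.2 CPM, with 0 counts in GFP (adjusted p = 0.0133). Both were high on both days, unlike Nanog, and both calls held without any 1 library and without the block (adjusted p of at most 0.0379). That of Nrarp ended with DESeq2 (0.0572). The call of Astn1 (adjusted p = 0.0416) ended without either GFP library, OvSvK day 3 or the block, and with limma on TPM or the series table (0.0504 to 0.744).

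Epithelial genes, which code for adhesion proteins, junctions, keratins and their regulators, were tested for 19 of 30. Higher calls were made for 6 and a lower call for 1. Of all 30, 16 were at 1 CPM or more in OvSvK on day 1 and 27 on day 3, against 14 and 9 in GFP. Cdh1, the adhesion protein E-cadherin, measured 38.4 CPM on day 1 and 243 on day 3 against 0.238 and 0, where the second GFP value is 0 counts. It lies at chr8:106603351-106670246 (+ strand). The day 1 ratio was 161-fold (95% interval 44.5 to 1336, exact, for counting error only), from 2 GFP counts, and on day 3 OvSvK was at least 675-fold higher (adjusted p = 0.0133). Dsp, which links desmosomes to keratin, measured 167 and 242 CPM against 20.7 and 15.2 (log2 difference 3.50, SE 0.48, adjusted p = 0.0173). Dsc2, a desmosomal cadherin, measured 23.8 and 14.5 CPM against 0.594 and 0.959 (log2 difference 4.57, SE 0.68, adjusted p = 0.0204). Grhl1, a factor of epithelial differentiation, reached 4.35 CPM on day 3 (adjusted p = 0.0398). Spint2, a protease inhibitor, and Epcam complete the 6. Krt18, a simple-epithelium keratin, was the lower call, at 3.14 and 7.98 CPM against 26.9 and 26.4 (adjusted p = 0.049). Esrp1, a splicing factor of epithelia, and Dsg2, a desmosomal cadherin, were too sparse to test and reached 4.63 and 11.7 CPM on day 3. Calls of Epcam, Cdh1 and Grhl1 ended without either GFP library, and that of Grhl1 also without OvSvK day 3 (adjusted p from 0.0554 to 0.182). Those of Spint2 and Krt18 ended without either GFP library, OvSvK day 3 or the block, and that of Krt18 also without OvSvK day 1 or with a filter at 5 CPM in 2 libraries (adjusted p from 0.0504 to 0.241).

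Transcription factors of the mesenchymal state had 3 lower calls among 8 tested and 0 higher, with a median log2 difference of -1.12 beside 0.06 over all genes tested. Twist2 measured 14 and 8.98 CPM in OvSvK against 97.7 and 36 (log2 difference -2.41, SE 0.45, adjusted p = 0.0324). Snai1, a repressor of E-cadherin, measured 4.85 and 2.35 CPM against 26.4 and 12.1 (log2 difference -2.40, adjusted p = 0.0395), and Foxc2 1.49 and 0.712 against 11.8 and 5.03 (adjusted p = 0.0464). OvSvK lay below GFP on both days for each of the 3. Snai2 and Twist1 had log2 differences of -1.53 and -0.70 that did not pass (adjusted p = 0.161 and 0.324). The calls of all 3 ended without GFP day 1, OvSvK day 3 or the block, and that of Foxc2 without OvSvK day 1 (adjusted p from 0.0546 to 0.261). Those of Snai1 and Foxc2 also ended with all days of both arms in the fit (0.279 and 0.376).

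Fibroblast and matrix genes had 8 lower calls and 0 higher among 32 tested, with a median log2 difference of -1.24. Their summed level was 24553 and 12997 CPM in OvSvK on days 1 and 3, and 39139.5 and 56684 in GFP. Loxl1, which crosslinks elastin, measured 34.3 and 22.6 CPM against 234 and 148 (log2 difference -2.74, SE 0.40, adjusted p = 0.0203). Col6a3, a chain of collagen VI, measured 236 and 299.7 CPM against 1152 and 2135 (log2 difference -2.56, SE 0.41, adjusted p = 0.0234). Pdgfrb, the PDGF receptor of mesenchymal cells, measured 35.8 and 34.8 CPM against 173 and 243 (log2 difference -2.53, SE 0.42, adjusted p = 0.0238). Col5a1 and Col6a2, 2 further collagen chains, had log2 differences of -2.15 and -2.00 (adjusted p = 0.0348 and 0.0397). Col1a1, the main collagen of fibroblasts, measured 1697 and 914 CPM against 5891 and 10056 (adjusted p = 0.0403), and Pdgfra and Dpt were the remaining lower calls. Each gene was lower in OvSvK on both days. The calls of Loxl1, Col6a3, Pdgfrb, Col5a1 and Col6a2 ended without OvSvK day 3, and that of Col6a2 also without GFP day 3, OvSvK day 1 or the block (adjusted p from 0.0531 to 0.174). With all days of both arms in the fit, the calls of Loxl1 and Col5a1 ended (0.214 and 0.13), and with the series' own table those of Col5a1 and Col6a2 (0.0582 and 0.0507). The call of Col1a1 ended without either GFP library, OvSvK day 3 or the block, and that of Dpt without GFP day 3 or the block (adjusted p from 0.0509 to 0.163).

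In the lower direction, the 12 largest fitted differences were taken among called genes averaging 5 CPM or more. Il1rl1, the receptor of interleukin-33 at chr1:40429570-40465415 (+ strand), measured 16.9 and 9.9 CPM in OvSvK against 479 and 466 in GFP (log2 difference -5.19, SE 0.47, adjusted p = 0.00946). Mmp3, a matrix metalloproteinase, measured 4.3 and 12.3 CPM against 185 and 382 (log2 difference -5.19, SE 0.46, adjusted p = 0.00946). Cxcl12, a chemokine of stromal cells at chr6:117168535-117181367 (+ strand), measured 10.4 and 2.56 CPM against 115 and 189 (log2 difference -4.78, SE 0.81, adjusted p = 0.027). Pgm5, a protein of cell-matrix contacts, measured 0.386 and 0.285 CPM against 13.4 and 76.2 (log2 difference -6.52, adjusted p = 0.016). These 4 are genes of stromal signalling, matrix turnover or matrix contact. The others were Podnl1, Ak5, Cadps, Megf6, Lrrc17 and Kcnj15, with log2 differences from -5.94 to -4.86, and AC098877.1 and Rpsa-ps10, both of which also differed between library sets. AC098877.1 had 0 counts in both OvSvK libraries. Leaving out either GFP library ended the calls of Cadps and Cxcl12, leaving out GFP day 3 that of Kcnj15, and the fit without the block those of Cadps and Megf6 (adjusted p from 0.0511 to 0.0918). With all days of both arms in the fit, those of Ak5, Lrrc17 and Cxcl12 ended (0.102 to 0.21), and with DESeq2 that of AC098877.1 (0.0539).

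Smooth muscle genes, which mark contractile cells, had 1 lower call among 9 tested, with a median log2 difference of -1.78. Cnn1, calponin, measured 9.87 and 0.57 CPM against 49.4 and 5.63 (log2 difference -2.72, adjusted p = 0.0338), and its call ended without the block (adjusted p = 0.328) or without GFP day 1, GFP day 3 or OvSvK day 3 (up to 0.973). Tagln and Tpm2 had log2 differences of -1.78 and -1.74 that did not pass (adjusted p = 0.0604 and 0.0563). The TGF-beta group of ligands, receptors and targets had 3 lower calls and 1 higher among 15, with a median of -1.10. Ltbp2, a latent TGF-beta binding protein, measured 15.5 and 3.56 CPM against 178 and 233 (log2 difference -4.74, SE 0.76, adjusted p = 0.0235). Tgfb3, a ligand, and Tgfbr2, the type II receptor, had log2 differences of -2.32 and -2.15 (adjusted p = 0.0366 and 0.0367). Ctgf, a target gene, moved the other way at 303 and 154 CPM against 68 and 46 (log2 difference 1.95, adjusted p = 0.037). Each of these 4 calls ended without at least 1 library, at adjusted p of up to 0.285: Ltbp2 without GFP day 1 or day 3, Tgfb3 without OvSvK day 3, Tgfbr2 without OvSvK day 1 or day 3, and Ctgf without GFP day 1, GFP day 3 or OvSvK day 1. Those of Tgfbr2 and Ctgf also ended without the block (0.0542 to 0.0651), and those of Cnn1, Ltbp2 and Tgfb3 with all days of both arms in the fit (0.124 to 0.465).

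Replication and mitosis genes had 5 higher calls among 24 tested and 0 lower, with a median log2 difference of 0.82. Mki67, a marker of cycling cells, measured 732 and 579 CPM against 35.8 and 43.4 (log2 difference 4.05, SE 0.44, adjusted p = 0.0112). Top2a, a topoisomerase of dividing cells, measured 589 and 633 CPM against 95.7 and 91.8 (log2 difference 2.70, SE 0.39, adjusted p = 0.0187). Kif11, a spindle motor, and Bub1, a checkpoint kinase, had log2 differences of 3.15 and 2.98 (adjusted p = 0.0167 and 0.019). The list's median ratio was 0.06 on day 1 and 1.72 on day 3, so the 5 called genes were not typical of the list on day 1. Ccne2, cyclin E2, had a log2 difference of 3.05 (adjusted p = 0.027) that ended without GFP day 1 or OvSvK day 1 (0.0608 and 0.0741), with the GC trend removed (0.105) and with the series' own table (0.123). Its GC content is 37.5%, in the lowest GC bin (32.8% to 44.6%). Kif11 (42.2%), Top2a (42.9%) and Bub1 (40.6%) fall in that bin too, and their calls held with the GC trend removed. Of 16 p53 targets and Cdk inhibitors, Cdkn2b was lower, at 16.3 and 17.9 CPM against 64.4 and 152 (log2 difference -2.54, adjusted p = 0.0333, and 0.061 without OvSvK day 3). Cdkn1a and Cdkn2a, 2 further inhibitors, had log2 differences of -0.93 and -1.06 that did not pass (adjusted p = 0.175 and 0.163). These 3 were not typical of the 16 genes, whose median log2 difference was 0.16. The median ratio of the 16 was 0.36 on day 1 and -0.6 on day 3.

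Chromatin genes were led by polycomb repressive complex 2, with 4 higher calls among 9 tested and a median log2 difference of 0.77. Suz12, a core subunit, measured 186 and 279 CPM against 21.2 and 47.1 (log2 difference 2.85, SE 0.42, adjusted p = 0.0203). Ezh2, the methyltransferase, measured 132 and 148 CPM against 27.8 and 21.8 (log2 difference 2.50, SE 0.42, adjusted p = 0.0266). Jarid2 and Mtf2, cofactors that recruit the complex, had log2 differences of 2.26 and 2.50 (adjusted p = 0.0301 and 0.0451). Phf19, a further member of the list, went the other way, at 13 and 4.49 CPM against 39 and 9.47. It did not pass (log2 difference -1.34, adjusted p = 0.111). Suz12, Ezh2 and Mtf2 fall in the lowest GC bin (40.8%, 44.3% and 41.9%), and their calls held with the GC trend removed. The calls of Ezh2, Jarid2 and Mtf2 ended without OvSvK day 3, those of Jarid2 and Mtf2 without GFP day 1 or the block, and that of Jarid2 without GFP day 3 (adjusted p from 0.0531 to 0.453). Tet2, a dioxygenase that oxidizes methylated cytosine, was the 1 higher call among 7 DNA methylation enzymes, at 44.6 and 71.6 CPM against 7.01 and 23.4 (log2 difference 2.13, adjusted p = 0.0448). It ended without GFP day 1, OvSvK day 1, OvSvK day 3 or the block (0.0641 to 0.326). Both Tet2 and Mtf2 ended with all days of both arms in the fit (0.115 and 0.139), and Mtf2 with the series' own table (0.0939). Dnmt3b, a de novo methyltransferase, measured 3.31 CPM on day 1 and 20.9 on day 3 and did not pass (adjusted p = 0.163).

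**Figure D4:**
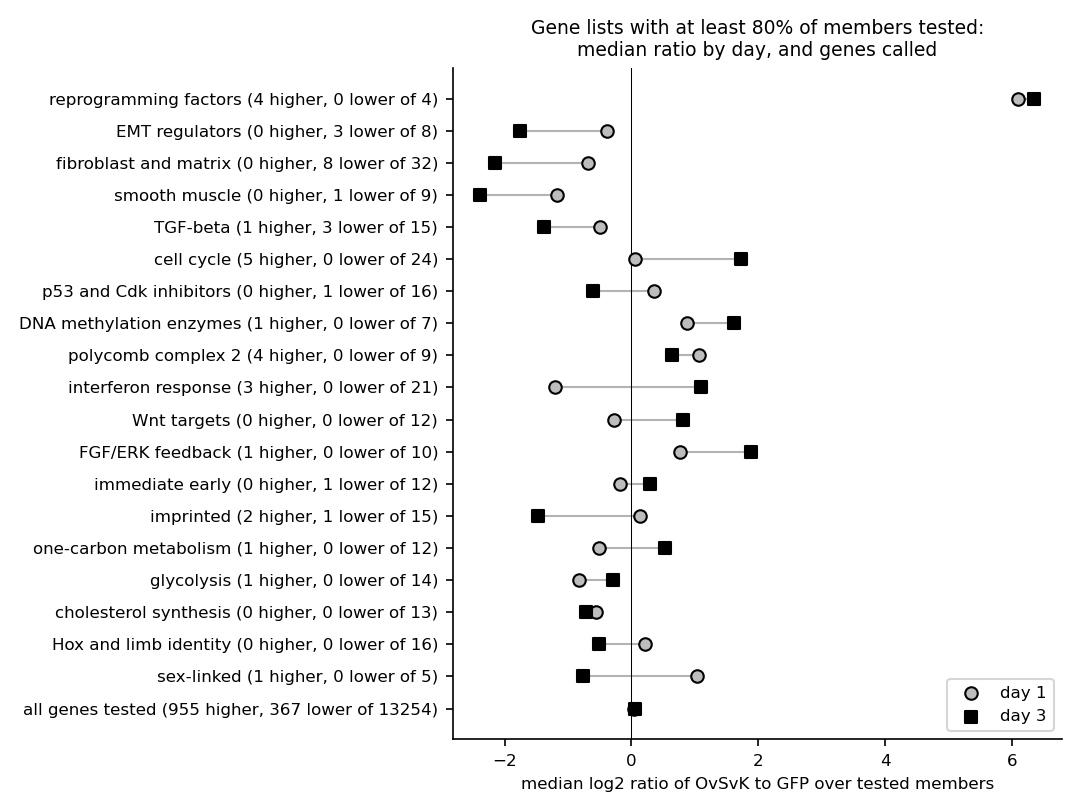
Median log2 ratio of OvSvK to GFP over the tested members of the 19 gene lists with at least 80% of members tested, on day 1 (grey circles) and day 3 (black squares), with the genes called in brackets. The fibroblast and smooth muscle lists lie to the left of all genes tested on both days, and the interferon list moves from -1.21 to 1.09.

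Interferon-inducible genes had medians of opposite sign on the 2 days. The median log2 ratio over 21 tested members was -1.21 on day 1 and 1.09 on day 3, and 3 were called higher and 0 lower. Tgtp1, an interferon-gamma-induced GTPase, measured 2.98 CPM on day 1 and 842 on day 3 in OvSvK, against 0 and 1.2 in GFP (adjusted p = 0.00941). Iigp1, another such GTPase, measured 0.882 and 422 CPM against 0.119 and 7.19 (adjusted p = 0.0176), and Gbp3 5.02 and 356 against 1.07 and 11.1 (adjusted p = 0.0388). Nearly all of their signal came from OvSvK day 3. Without that library the log2 difference of Iigp1 was -2.03 and that of Gbp3 -0.28, and all 3 calls ended. They also ended without GFP day 1, GFP day 3 or the block, and Iigp1 without OvSvK day 1 (adjusted p from 0.0906 to 0.941). Iigp1 and Gbp3 ended with all days of both arms in the fit (0.13 and 0.136), Iigp1 with TPM (0.0677) and Gbp3 with the series' own table (0.111). Ifit3 and Ifit1, targets of type I interferon, measured 0.276 and 26.9, and 0.607 and 43 CPM in OvSvK, against 22.5 and 129, and 7.96 and 93.5 in GFP (adjusted p = 0.0605 and 0.0944). The GTPase genes and the Ifit genes thus had opposite signs on day 3. The promoter window of Tgtp1 is shown because it holds GAAA, any 2 bases, then GAAA. That motif is in 3.99% of 27025 genes' windows, 3.7% of 9769 tested genes', 4.65% of 688 higher genes' and 2.39% of 251 lower genes'. The Tgtp1 window lies at chr11:48992197-48992496, - strand, with the match in capitals.
Tgtp1: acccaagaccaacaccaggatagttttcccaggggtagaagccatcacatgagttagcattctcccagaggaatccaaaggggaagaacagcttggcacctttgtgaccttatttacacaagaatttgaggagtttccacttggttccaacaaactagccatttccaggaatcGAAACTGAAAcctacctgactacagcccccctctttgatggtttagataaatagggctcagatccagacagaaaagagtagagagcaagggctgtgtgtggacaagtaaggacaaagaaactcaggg
The summed level of the interferon list was 165 and 3656 CPM in OvSvK on days 1 and 3 and 239 and 983 in GFP.

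Among signalling lists, Spry4, a feedback inhibitor of FGF signalling, was the 1 higher call of 10 FGF and ERK feedback genes, at 171 and 179 CPM against 20.2 and 15.2 (log2 difference 3.32, SE 0.43, adjusted p = 0.0155). Dusp4 and Etv5, a feedback phosphatase and a target factor, had log2 differences of 1.88 and 2.42 that did not pass (adjusted p = 0.055 and 0.0654). Spry1, a further member, went the other way, at -1.54 (adjusted p = 0.148). The median log2 difference of the feedback list was 1.24. Of 12 Wnt targets 0 were called by edgeR (5 at an unadjusted p below 0.05, and 1 by DESeq2), and their signs were mixed. Axin2, their standard readout, had a log2 difference of -1.36 (adjusted p = 0.117) and Rnf43 one of -3.03 (0.0688). Notum, Sp5 and Dkk1 had log2 differences of 2.71, 3.39 and 2.77 (adjusted p from 0.0786 to 0.121). The median log2 ratio of the Wnt list was -0.28 on day 1 and 0.82 on day 3. Fosl2, an AP-1 subunit, was the 1 lower call of 12 immediate early genes, at 39.6 and 27.2 CPM against 204 and 378 (log2 difference -3.08, SE 0.52, adjusted p = 0.027, and 0.141 with all days of both arms in the fit). Ier2, Egr1 and Fos went the other way, at 1.70, 1.63 and 1.76, and did not pass (adjusted p from 0.0906 to 0.206). Atf3 was at -1.74 (adjusted p = 0.129), and the median log2 difference of the immediate early list was -0.08. In the metabolic lists, Tdh was called of 12 one-carbon genes and Hk2 of 14 glycolysis genes. The glycolysis list had a median log2 difference of -0.54, so Hk2 was not typical of it. Tpi1, Pkm, Aldoa and Ldha had log2 differences from -1.60 to -0.98 that did not pass (adjusted p from 0.0581 to 0.163). By edgeR, 0 of 13 cholesterol synthesis genes were called (4 at an unadjusted p below 0.05, and 1 by DESeq2). Counts of 0 or 1 in lists of 10 to 14 genes do not stand apart from the shares over all genes tested (7.21% higher, 2.77% lower). Hk2, a hexokinase, measured 197 and 232 CPM against 64.5 and 68.8 (log2 difference 1.68, adjusted p = 0.0475) and ended without either OvSvK library (0.116 and 0.235). Phgdh, the first enzyme of serine synthesis, had a log2 difference of -1.73 that did not pass (adjusted p = 0.0511).

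Imprinted genes, which are expressed from 1 parental copy, had 2 higher calls and 1 lower among 15 tested. H19, a noncoding RNA of fetal tissue, measured 157 and 231 CPM in OvSvK against 2057 and 4541 (log2 difference -4.01, SE 0.45, adjusted p = 0.0119). Peg10, a retrotransposon-derived gene, measured 697 and 2379.7 CPM against 24.6 and 21.2 (log2 difference 5.82, SE 0.68, adjusted p = 0.0133). Meg3, a noncoding RNA, had a log2 difference of 1.89 (adjusted p = 0.0457). Peg10 ended without either GFP library and Meg3 without any 1 library, without the block or with all days of both arms in the fit (adjusted p from 0.0504 to 0.81). Igf2, the growth factor gene beside H19, measured 606 and 183 CPM against 1803 and 3272 and did not pass (adjusted p = 0.0599). Xist, the RNA that coats the inactive X chromosome of female cells, measured 746 and 885 CPM in OvSvK against 12 and 69.3 in GFP (log2 difference 4.80, SE 0.71, adjusted p = 0.0204, and 0.0559 without the block). The 4 Y-linked genes tested did not pass. Whether the arms hold the same mix of male and female cells is not stated, and its part in the differences was not tested. Of 16 genes of position and limb identity, 0 were called by edgeR (3 at an unadjusted p below 0.05, and 0 by DESeq2).

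Markers of other cell types were read to see which cells the fibroblast cultures could hold. Neural genes had 4 higher calls of 6 tested, and 8 of the 14 list members were not tested. At 1 CPM or more were 6 and 10 of the 14 in OvSvK on days 1 and 3, and 5 on each day in GFP. Tubb3, a neuronal tubulin, measured 487 and 306 CPM against 12.2 and 3.96 (log2 difference 5.77, SE 0.52, adjusted p = 0.00946). Map2, a microtubule protein of neurons, measured 179 and 150.5 CPM against 13.5 and 18.2 (log2 difference 3.38, SE 0.45, adjusted p = 0.0161), and Nes, an intermediate filament of progenitors, 811 and 763 against 147 and 39.4 (adjusted p = 0.028). Neurog2, a neural bHLH factor, reached 7.48 CPM on day 3 with 0 counts in GFP (adjusted p = 0.0359). Both OvSvK libraries were above both GFP libraries for these 4 genes. Ncam1, a neural cell adhesion molecule, measured 74 and 37.6 CPM against 68.1 and 116 and did not pass (log2 difference -0.75, adjusted p = 0.398). In OvSvK on day 3, Pax6 (0.57 CPM), Olig2 (0.0712) and Otx2 (0.214) were under 1 CPM. Nes ended without the block, and Neurog2 without the block, either GFP library or OvSvK day 3 (adjusted p from 0.0612 to 0.156).

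Of 10 endothelial markers, 6 were tested, with 2 higher calls. Tek, the receptor of angiopoietins, measured 127 and 109 CPM against 0.475 and 1.08 (log2 difference 7.26, SE 0.62, adjusted p = 0.00941), and Kdr, a VEGF receptor, 49.6 and 33.3 against 7.49 and 11.1 (adjusted p = 0.0487). Cdh5, the cadherin that defines the type, measured 0.496 and 1.5 CPM against 6.06 and 3 and did not pass (adjusted p = 0.155). Of 10 trophoblast genes, 3 were tested, with 2 higher calls. Tfap2c measured 3.31 and 36.5 CPM against 0.238 and 0.12, and Gata3 10.8 and 10.2 against 1.54 and 1.2 (adjusted p = 0.0314 and 0.0408). The third tested gene, Krt7, measured 0.221 and 0.641 CPM against 5.59 and 2.04 and did not pass (log2 difference -3.07, adjusted p = 0.101). Macrophage markers were lower for 2 of 6, Lyz2, at 3.03 and 0.784 CPM against 45.2 and 17.7, and Cd14, at 0.882 and 0.641 against 10.2 and 6.23 (adjusted p = 0.0141 and 0.0359). The summed level of the 13 macrophage markers was 53.7 and 39.1 CPM in OvSvK and 139 and 84.6 in GFP, and Ptprc was at 0.662 CPM or less in all 4 libraries. Acta1, a muscle actin, was the 1 lower call of 3 skeletal muscle genes tested, at 5.79 and 0.997 CPM against 59.8 and 7.67 (adjusted p = 0.0213), and the myogenic factor Myod1 had 0 counts in all 4. Mesoderm and endoderm lists had 0 calls of 3 tested each by edgeR (0 and 1 at an unadjusted p below 0.05, and 0 by DESeq2), and 0 of 12 germ cell genes had enough counts to test. In OvSvK on day 3, the mesoderm genes T and Cdx1, too sparse to test, reached 8.69 and 9.76 CPM. Leaving out libraries ended the calls of Kdr (GFP day 1, OvSvK day 1 or OvSvK day 3), Tfap2c (GFP day 1, GFP day 3 or OvSvK day 3), Gata3 (OvSvK day 1 or day 3), Lyz2 (GFP day 1), Cd14 (GFP day 1 or OvSvK day 3) and Acta1 (GFP day 1, GFP day 3 or OvSvK day 3), at adjusted p from 0.0616 to 0.518. The fit without the block ended those of Kdr, Tfap2c, Lyz2 and Acta1 (0.051 to 0.151), and that with all days of both arms those of Lyz2 and Acta1 (0.254 and 0.974).

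Several genes differed between OvSvK and GFP by unequal amounts on the 2 days, and these values have no test, since each day is 1 library per arm. The log2 ratio of Sall4 went from 1.75 on day 1 to 8.48 on day 3, that of Esrrb from -0.66 to 6.32, and that of Wnt8a, a Wnt ligand, from -0.04 to 6.79. Tgtp2, a GTPase nearly identical to Tgtp1 with which it can share reads, went from 0.42 to 7.52. All 4 had the higher ratio on day 3. Ogn, a small proteoglycan of connective tissue, went the other way, from -0.06 to -6.79. Ogn itself measured 3.53 and 1.35 CPM in OvSvK against 3.68 and 168 in GFP, so the change lay in the GFP arm. Aspn, a related proteoglycan, went from 2.92 to -4.61, with 0.238 CPM in GFP on day 1 and 31.8 on day 3. Of the 955 higher genes, 437 had the larger ratio on day 3, and of the 367 lower genes 263 did.

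**Figure D5:**
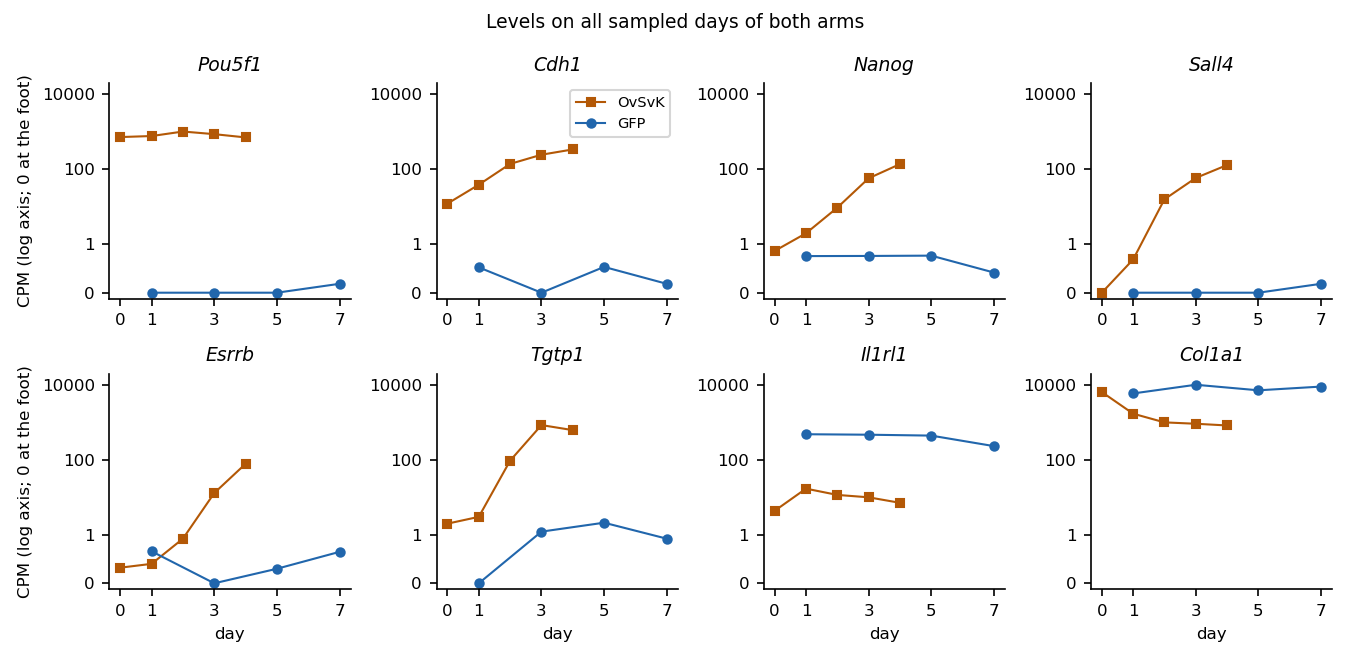
CPM (log axis, 0 at the foot) of 8 genes on all sampled days of OvSvK (brown squares, days 0 to 4) and GFP (blue circles, days 1 to 7). Cdh1, Nanog, Sall4 and Esrrb are at their highest on day 4 in OvSvK, Pou5f1 is high from day 0, and Col1a1 falls from day 0 while Il1rl1 is low throughout.

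Libraries of other days, which the comparison did not use, give the levels of these genes before and after. In OvSvK on days 0, 2 and 4, Nanog measured 0.653, 9.35 and 136 CPM, against 0.489 and 0.173 in GFP on days 5 and 7. Cdh1 measured 12, 138 and 336 CPM on those OvSvK days and 0.244 and 0.0864 in GFP. Esrrb measured 0.131, 0.779 and 77.8 CPM, and Sall4 0, 15.7 and 129. These 4 genes were highest on day 4, whereas Pou5f1 was at 719 CPM on day 0 already and at 704 on day 4. Col1a1 measured 6438 CPM on day 0 in OvSvK and 822 on day 4, and 7146 and 8992 in GFP on days 5 and 7. Il1rl1 was already at 4.31 CPM on day 0 in OvSvK.

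OSK shares the same GFP libraries, so its values are set beside those of OvSvK without a test. On days 1 and 3 OSK held Pou5f1 at 125 and 58.1 CPM, Sox2 at 398 and 174 and Klf4 at 638 and 359.9. Cdh1 measured 6.5 and 61.8 CPM in OSK, Nanog 0.22 and 0.412, L1td1 22.4 and 111, and Tubb3 70.4 and 11.6. Il1rl1 measured 21.9 and 7.21 CPM in OSK, and Col1a1 3386 and 628. OSK belongs to the same library set as GFP on these days.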

How the data were processed

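RNA sequencing was done on TruSeq libraries of total RNA, per the labels. Per the submitters' processing notes, RSEM 1.2.4 was run on the mm10 build. The sources used here do not give strandedness, the aligner, its settings or the runs. Each library's deposited file gives 24130 genes; its values are expected counts and TPM, per the file headers. The authors' table of the whole series is named CPM, but its values share 1 median (374) in every column, so it was read as a deposited score and used as an alternative only. In that table, 1 column matched no sample and was not used.

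Expected counts were rounded and tested with edgeR 4.0.16 in R 4.3.3 (TMM, filterByExpr, robust quasi-likelihood fit, day as a block and arm as the effect, 4 libraries, 1 residual degree of freedom), with adjusted p-values over 13254 genes. The biological coefficient of variation was 0.376. The block is the labelled day, which pairs 1 library of each arm. Day ratios used a prior count of 2, and a floor of 3 counts per library stands for 0. That floor lay between 0.165 and 0.360 CPM. Intervals and floors cover counting error only. Alternatives used DESeq2 1.42.0 and limma 3.58.1. The test was also run on simulated counts in which the difference between arms did not vary between days. That run therefore does not show how often the test errs in these 4 libraries. Plots were drawn with matplotlib 3.10.9, and tables were made in python 3.11.15 with pandas 2.3.3, scipy 1.17.1 and numpy 2.4.6. Gene symbols were taken from the series table (12897 identifiers) or the reference (10788).

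The comparison and all 30 gene lists were chosen with earlier results of these data known. Genes named were the factors and Myc, the 12 largest fitted differences in each direction among called genes averaging 5 CPM or more, the 5 genes of each list with the smallest p, and the 6 genes in each direction whose ratio changed most between days with at least 10 CPM in 1 library. Nanog, Col1a1, Krt18, the members too sparse to test, Astn1, Nrarp, Pipox and the genes plotted over all days were chosen after their values were seen. A gene that the rule names is not reported here. Both strands were searched for 3 promoter motifs; variants of the Sox and Klf motifs were also looked at and are not reported.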

Additional observations from a re-analysis of the deposited data

Results flagged for a closer look

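Of the named genes with at least 5 CPM in 1 library of each day, 3 stood on opposite sides of GFP by at least 2-fold on the 2 days. Aspn did so too, from a log2 ratio of 2.92 to -4.61, but stayed under 5 CPM in both day 1 libraries. With 1 library per arm and day, this difference between days was not tested. Apol9b, an apolipoprotein L gene, had a log2 ratio of -3.09 on day 1 and 3.55 on day 3. The identifier ENSMUSG00000074738 of B930041F14Rik had a log2 ratio of 6.04 on day 1 and -1.09 on day 3. It had 0 counts in GFP on day 1, whereas a second identifier with the same symbol held 184 counts there and 0 in the other 3 libraries, so the split of reads between both is uncertain. Zcchc5 had a log2 ratio of 1.88 on day 1 and -4.49 on day 3. The genes were chosen for the size of their change between days, so their opposite signs are a description.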

How the results depend on the processing

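Against 955 higher and 367 lower genes, the fit with no replicate block gave 555 and 247, DESeq2 1733 and 892, no filter on low counts 1800 and 775, log2(TPM + 1) with limma 2212 and 613, and the deposited score with limma 953 lower genes. Removing the GC trend with the block kept gave 1660 and 1203. Adding OSK days 1 and 3 gave 1969 and 1257, all days of both arms 2416 and 2229, and all 20 libraries 4318 and 3333. Leaving out 1 library each, with no day term and a lone library assumed to vary like the other arm, gave from 573 to 1943 higher and 138 to 928 lower genes: 573 and 138 without OvSvK day 3, 1943 and 928 without GFP day 3, and 669 lower without GFP day 1. At 4-fold, 648 genes were higher and 237 lower on both days. DESeq2 size factors, 5 CPM in 2 libraries and the removal of genes that differ between library sets stayed within 1.5 times. No main call was made in the opposite direction under any of these 16 settings. The cause of these shifts was not tested. The share of higher calls ran from 51.6% (series table) to 78.3% (TPM), with 61.0% for the 6 libraries, 52.0% for all days and 56.4% for 20 libraries. Of 84 called named genes, 25 kept the call in every setting that gave a value. Among called named genes, reversed signs were -2.03 for Iigp1 and -0.28 for Gbp3 without OvSvK day 3, and 1.84 for Cnn1 over all days. Without GFP day 3, Iigp1 and Gbp3 reached 10.66 and 7.36. Eif2s3y and Uty were not called and lay at 0.13 and 0.09 in the main fit. Both were negative under several settings, with -1.89 and -1.93 when the GC trend was removed. Each group is 1 library, so depth and day variation limit genes near the floor of 3 counts.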
